A study of Saccharomyces cerevisiae with 2 samples.

Results

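Isolated nucleosomes, meaning nucleosome calls with a wide call-free gap on each side, were followed in budding yeast cells that lack FUN30 and in wild-type cells. Both strains were BY4741, a standard haploid laboratory strain of Saccharomyces cerevisiae with auxotrophic marker mutations, so the mutant differed by label in FUN30 (fun30D). Fun30 is a chromatin remodelling enzyme that uses ATP. Cells of both genotypes were grown in YPD, a rich glucose medium, at 30 °C to an optical density of about 0.5 and fixed for 30 min in 1% paraformaldehyde. Crude nuclei were treated for 10 min at 37 °C with micrococcal nuclease, and mononucleosomal DNA was gel purified before sequencing. With 1 library of each genotype there is no replicate error, and the genotypes were not tested against each other. A difference between the libraries covers genotype, culture, digestion and library preparation together.

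A call counted as isolated when its centre lay at least 250 bp and less than 800 bp from the centres of both neighbouring calls. On chromosomes 1 to 16 the rule found 3361 of 48132 calls in the fun30 deletion library (6.98%, 95% exact interval 6.76 to 7.21%) and 3412 of 48019 calls in the wild-type library (7.11%, 6.88 to 7.34%). The members were chosen by the measured centres alone, so gap lengths in the library of choice are given only as a description. All intervals are exact (Clopper-Pearson) for shares and normal for differences of shares. They account for counting error alone, since the calls of 1 library do not replicate a genotype.

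A nucleosome is a short stretch of DNA wrapped around a core of histone proteins. Along yeast genes nucleosomes form regular arrays that start beside a nucleosome-depleted promoter, and remodelling enzymes slide, space or evict them. Micrococcal nuclease digests the DNA between nucleosomes and spares the wrapped DNA, so each call is read as a protected stretch. A gap is a stretch without a call and is not shown to be free of nucleosomes, because the deposited lists begin at an occupancy signal of 0.0824 in both libraries.

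The deleted locus was taken to be the longest run of wild-type calls without a mutant counterpart, 18 calls on chromosome 1 with centres from 115011 to 117922. Of these, 0 met the rule, so no isolated nucleosome rests on the deleted stretch.

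Wide gaps were common in both lists, so isolation did not single out a rare arrangement. The mean distance between neighbouring calls was 247.3 bp in the fun30 deletion library and 248.1 bp in wild type, although the median was 170.0 bp in each. Of all distances, 24.8% in the fun30 deletion library and 25.3% in wild type were from 250 to below 800 bp. A wide gap on the right was found at 28.2% of the mutant calls with a wide gap on the left (27.4 to 29.0%), against 23.7% of the mutant calls without one (23.2 to 24.1%). The corresponding wild-type shares were 28.1% (27.3 to 28.9%) and 24.3% (23.9 to 24.8%). In both libraries a wide gap was somewhat more frequent beside another wide gap than beside the other distances pooled. The pool held distances below 250 bp and those of 800 bp or more, which were not compared separately. The rule used the same distances, so these shares and their intervals serve as a description only.

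The longer gap of an isolated nucleosome was typically 1.33 times the shorter one, the median ratio in each library. The median gap length was 371 bp over 6722 gaps in the fun30 deletion library, with quartiles of 315 and 494 bp, and 367 bp over 6824 gaps in wild type, with quartiles of 311 and 493 bp. The shorter gap of a nucleosome had a median of 322 bp in the mutant and 319 bp in wild type, and the longer gap a median of 469 bp in the mutant and 467 bp in wild type. Both gaps reached 400 bp or more at 640 mutant nucleosomes (19.0%) and at 629 wild-type nucleosomes (18.4%). Lengths of the left and right gap were nearly unrelated, with a rank correlation of 0.02 over the nucleosomes of each library. The length of the shorter gap was also nearly unrelated to occupancy, with rank correlations of -0.004 in the mutant and -0.03 in wild type.

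**Figure D1:**
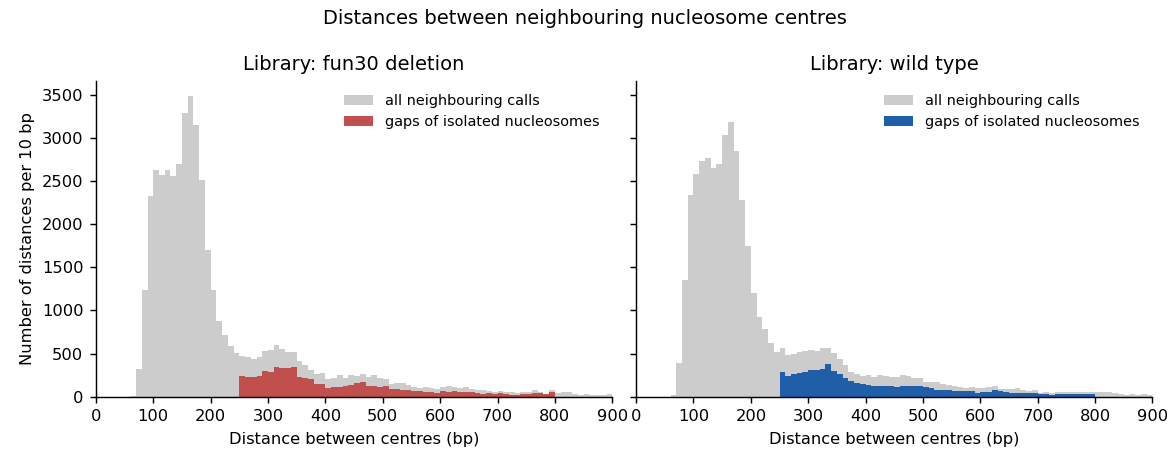
Number of distances between neighbouring nucleosome centres per 10 bp, for the fun30 deletion library (left) and the wild-type library (right); grey bars are all neighbouring calls and coloured bars are the gaps of isolated nucleosomes, a gap between 2 isolated nucleosomes being counted for each. The coloured bars begin at the lower limit of 250 bp and end at 800 bp, with medians of 371 bp in the mutant and 367 bp in wild type.

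Members just inside the lower limit were weaker than calls just outside it in the mutant and stronger in wild type. In the fun30 deletion library the 241 members with a shorter gap of 250 to 259 bp had a median occupancy of 0.148, and the 285 calls that missed the lower limit by 10 bp or less had 0.166. In wild type 285 members just inside this limit had a median of 0.170, and 272 calls just outside had 0.159. At the upper limit 77 mutant members just inside had 0.154 and 52 calls just outside had 0.160, and in wild type 60 members inside had 0.149 and 65 calls outside had 0.154.

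Isolated nucleosomes were weak. Their median occupancy signal was 0.163 in the fun30 deletion library and 0.162 in wild type, against 0.215 for the other calls of the mutant and 0.216 for those of wild type. The signal is the deposited value, whose scaling the sources used here do not give. Its distribution over all calls is matched between the libraries, so it shows where signal lies and not how much there is. Calls with 1 wide gap lay between, with medians of 0.190 in the mutant and 0.188 in wild type. Regularly spaced calls, with both neighbours from 140 to below 190 bp away, were highest at 0.304 in the mutant and 0.296 in wild type.

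Isolated calls were a smaller share of the strong calls. With the calls of each library split by occupancy into 10 classes of equal size, in the weakest class 10.7% were isolated in the fun30 deletion library (9.88 to 11.7%) and 10.6% in wild type (9.74 to 11.5%). In the strongest class 2.85% were isolated in the mutant (2.39 to 3.36%) and 2.33% in wild type (1.92 to 2.80%). An occupancy of 1 or more was reached by 50 isolated nucleosomes in the mutant and by 32 in wild type, with maxima of 3.93 in the mutant and 4.24 in wild type.

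Call widths were slightly larger at isolated nucleosomes. They averaged 117.9 ± 22.4 bp in the fun30 deletion library (SD over 3361 calls) and 117.8 ± 23.9 bp in wild type (SD over 3412 calls). Other calls, weighted to the same occupancy classes, averaged 114.5 bp in the mutant and 115.5 bp in wild type. The difference was 3.45 bp in the mutant (2.66 to 4.24) and 2.26 bp in wild type (1.42 to 3.10). Against calls with 1 wide gap it was 2.35 bp in the mutant (1.52 to 3.19) and 1.16 bp in wild type (0.272 to 2.04). Against regularly spaced calls it was 2.41 bp in the mutant (1.34 to 3.49) and 0.933 bp in wild type, with an interval that included 0 (-0.261 to 2.13). Shares of wide calls were not weighted by occupancy. Widths of 150 bp or more were found at 11.2% of the mutant isolated calls (10.1 to 12.3%) and at 12.3% of the wild-type ones (11.2 to 13.5%). Other calls had 7.74% in the mutant and 9.87% in wild type. Calls with 1 wide gap had 8.60% in the mutant (8.19 to 9.03%) and 10.8% in wild type (10.3 to 11.3%), where the interval overlapped that of isolated calls.

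Isolated nucleosomes were found on every chromosome, and their share differed between chromosomes. It was highest on chromosome 4, with 487 members in the fun30 deletion library (8.43%, 7.72 to 9.17%) and 486 in wild type (8.41%, 7.71 to 9.16%). It was lowest on chromosome 6 in the mutant, where 49 were isolated (4.45%, 3.31 to 5.84%), against 65 in wild type (5.87%, 4.56 to 7.42%). In wild type it was lowest on chromosome 1, with 39 isolated (4.52%, 3.23 to 6.13%), against 54 in the mutant (6.398%, 4.84 to 8.27%). Over the 16 chromosomes the share rose with the position of the last call, a measure of chromosome length, with rank correlations of 0.74 in the mutant and 0.82 in wild type. The mean distance between calls was less closely related to it, with rank correlations of 0.37 in the mutant and 0.24 in wild type.

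Calls near chromosome ends were isolated slightly more often in both libraries. Within 30 kb of the outermost call of a chromosome 7.77% of the mutant calls (6.88 to 8.74%) and 7.98% of the wild-type calls (7.07 to 8.97%) were isolated. Elsewhere the shares were 6.92% in the mutant (6.69 to 7.16%) and 7.04% in wild type (6.81 to 7.28%), and these intervals overlapped those within 30 kb. Within 10 kb the shares were 8.52% in the mutant (6.76 to 10.6%) and 9.91% in wild type (7.99 to 12.1%). The wild-type interval within 10 kb did not overlap that elsewhere, and the mutant interval did. How reads from repeated sequence at chromosome ends were placed is something the sources used here do not give.

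A flank of an isolated nucleosome has 1 wide gap by the rule and is itself isolated when its outward distance is wide too. This was so for 28.2% of outward distances in the mutant and 31.1% in wild type, against 24.8% of all distances in the mutant and 25.3% in wild type. In the fun30 deletion library 1611 of them (47.9%) had an isolated neighbour, and in wild type 1762 (51.6%). Rows of 3 or more held 695 nucleosomes in the mutant and 814 in wild type. The longest mutant rows held 6 nucleosomes, of which 1 lay on chromosome 6 at 58232 to 60020 and 2 on chromosome 15 at 39171 to 40840 and 1033074 to 1035226. The longest wild-type rows held 8, on chromosome 4 at 185602 to 188976 and on chromosome 11 at 593121 to 595777. These rows were not kept as such in the other library: of the 8 wild-type nucleosomes on chromosome 4, 6 had a mutant partner and 2 had an isolated one, and on chromosome 11 these counts were 5 and 1. The rows were chosen for their length, so a shorter row in the other library is what the choice favours.

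The distances beyond the flanking nucleosomes are given for each library without an interval on their difference, since calls and chromosomes of 1 library do not replicate a genotype. From the flanking call outwards, the next call was 140 to below 190 bp away in 31.4% of 6721 cases in the mutant and in 26.8% of 6821 cases in wild type, a difference of 4.62 percentage points between these libraries. A further wide gap followed in 28.2% of cases in the mutant and in 31.1% in wild type, a difference of -2.84 points. Over all neighbouring calls the difference in regular spacing was 2.20 points, and on the other side of calls with 1 wide gap it was 3.65 points. Where both outward calls were from 100 to 125 bp wide, the difference beside isolated nucleosomes came to 3.004 points. The SD of call width over all calls was 21.1 bp in the mutant and 22.8 bp in wild type, and its part in this difference was not otherwise tested.

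The next question was whether an isolated nucleosome was found again in the other library. A pair was a mutual nearest neighbour within 73 bp, measured between centres. Of the isolated nucleosomes of the fun30 deletion library 2709 had a wild-type partner (80.6%, 79.2 to 81.9%), against 84.8% of all mutant calls. Of those isolated in wild type 2761 had a mutant partner (80.9%, 79.6 to 82.2%), against 85% of all wild-type calls. The lower shares went with the lower occupancy. Other calls weighted to the same occupancy classes were paired in 79.6% of cases for the mutant and in 80.0% for wild type, which left differences of 0.996 points in the mutant (-0.399 to 2.39) and 0.944 points in wild type (-0.433 to 2.32), with 0 in both intervals.

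Persistence went with occupancy. In the weakest class 48.5% of the isolated nucleosomes of the mutant and 47.2% of those of wild type had a partner, and in the strongest class 137 of 137 in the mutant and 112 of 112 in wild type did. Isolated calls and calls with 1 wide gap differed by -0.514 points when chosen in the mutant (-1.97 to 0.943) and by -0.034 points when chosen in wild type (-1.47 to 1.41). Regularly spaced calls of like occupancy were paired more often than isolated ones. They were chosen for near neighbours, and denser surroundings offer more calls within the pairing distance of 73 bp. How many pairs arise from spacing alone was not tested. The differences of isolated from regular calls were -4.09 points in the mutant (-5.94 to -2.24) and -6.42 points in wild type (-8.26 to -4.58), and they were larger among weaker calls. Below the median occupancy they were -6.29 points in the mutant (-8.99 to -3.58) and -9.32 points in wild type (-12.0 to -6.65), and above it 0.098 points in the mutant (-0.817 to 1.01) and -0.763 points in wild type (-1.59 to 0.067).

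The displacement of the partner was small at most isolated nucleosomes. The median was 10 bp, whether the nucleosomes were chosen in the mutant or in wild type, and 37.4% of the pairs chosen in the mutant and 36.8% of those chosen in wild type lay within 5 bp. A displacement of 20 bp or more was found in 721 of 2709 pairs chosen in the mutant (26.6%, 24.96 to 28.3%) and in 761 of 2761 pairs chosen in wild type (27.6%, 25.9 to 29.3%), close to the 26.6% of all 40794 pairs. The 2 directions along the chromosome were similar, with 372 wild-type members displaced to higher and 389 to lower coordinates in the mutant.

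At like occupancy isolated nucleosomes were displaced less often than other calls. Other pairs weighted to the same classes were displaced in 31.6% of cases for the mutant and in 31.5% for wild type, and isolated minus other pairs gave differences of -4.97 points in the mutant (-6.71 to -3.23) and -3.97 points in wild type (-5.71 to -2.23). The isolated share was the lower in 10 of 10 occupancy classes in each direction of choice, and on 14 of 16 chromosomes for the mutant and 15 of 16 for wild type. These counts are a description, since both directions draw on the same pairs and chromosomes of 1 library do not replicate a genotype. The other calls include closely spaced and overlapping ones, since 29.7% of mutant and 30.9% of wild-type distances were under 140 bp. The part of such crowding was not tested. With a lower gap limit of 220 bp the differences from other calls were -3.12 points for the mutant and -1.74 points for wild type. Against calls with 1 wide gap the difference was -2.30 points for the mutant (-4.13 to -0.470) and -1.51 points for wild type, where the interval included 0 (-3.34 to 0.319). Against regularly spaced calls it was -3.31 points for the mutant (-5.59 to -1.03) and -0.578 points for wild type, again with 0 in the interval (-2.88 to 1.73).

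Strong isolated calls were displaced less often than strong calls with 1 wide gap. Above the median occupancy 14.4% of the isolated pairs chosen in the mutant and 14.3% of those chosen in wild type were displaced, and calls with 1 wide gap weighted alike gave 16.9% in the mutant and 16.97% in wild type. The differences were -2.53 points in the mutant (-4.76 to -0.295) and -2.71 points in wild type (-4.93 to -0.499). Below the median they were -2.14 points in the mutant (-4.76 to 0.488) and -0.667 points in wild type (-3.27 to 1.93), and both intervals included 0. Against regularly spaced calls above the median, weighted alike, the difference was -4.80 points in the mutant (-7.36 to -2.24). In wild type it was -1.72 points, with 0 in the interval (-4.24 to 0.799).

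**Figure D2:**
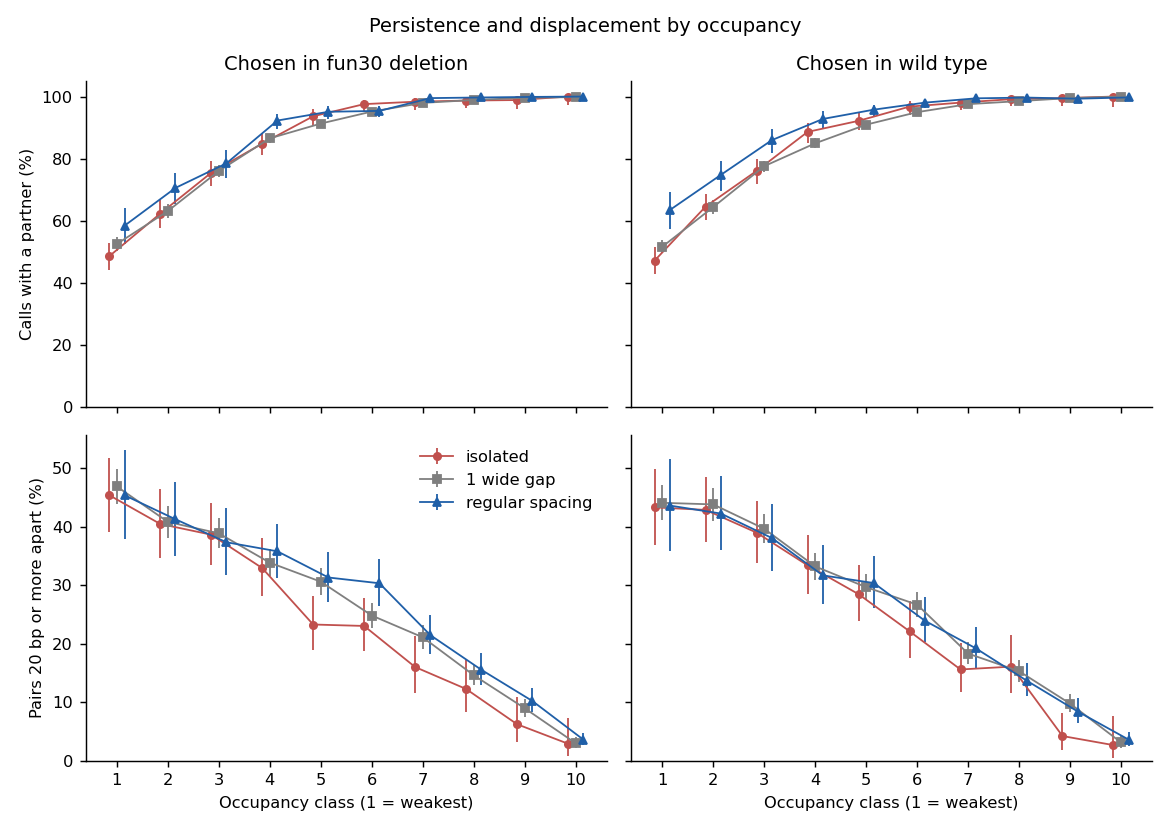
Share of calls with a partner in the other library (top) and share of pairs whose centres lay 20 bp or more apart (bottom) by occupancy class (10 of equal size), for calls chosen in the fun30 deletion library (left) and in wild type (right); points are shares and bars exact 95% intervals over calls. Isolated nucleosomes in the weakest class had a partner in 48.5% (mutant) and 47.2% (wild type) of cases, and the displaced share falls towards the strongest calls in each group.

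The displaced share is given by the length of the shorter gap as a description only, since the rule used this length and both measures share the centre in the library of choice. Among nucleosomes chosen in the fun30 deletion library 30.1% were displaced where the shorter gap was 250 to below 300 bp and 22.4% where it was 300 to below 350 bp, a difference of 7.70 points. Among those chosen in wild type the shares were 32.2% and 23.7%, a difference of 8.53 points. Median occupancies were similar in these classes, at 0.158 and 0.172 in the mutant and 0.163 and 0.171 in wild type. For calls with 1 wide gap the same difference by the length of that gap was 2.15 points in the mutant and 4.87 points in wild type. Among isolated nucleosomes above the median occupancy it was 6.59 points in the mutant and 2.45 points in wild type. Whether isolated calls and calls with 1 wide gap differ in this was not tested.

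The displaced share did not go on falling as gaps grew. It was lowest for a shorter gap of 325 to below 350 bp in the mutant, at 19.3%. In wild type it was lowest at 375 to below 400 bp, at 20.8% of 125 pairs (14.1 to 29.0%). The wild-type share at 325 to below 350 bp was 22.2% (18.3 to 26.4%), so these shares do not fix the place of the minimum. At 400 to below 450 bp the displaced share was 33.5% in the mutant and 33.5% in wild type. From 450 bp it was 23.0% in the mutant and 25.6% in wild type.

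The direction of displacement was mixed. Nucleosomes chosen in the fun30 deletion library had their wild-type partner towards the longer gap in 401 of 716 displaced pairs (56.0%). Nucleosomes chosen in wild type had their mutant partner towards the longer gap in 376 of 759 (49.5%). These shares are a description only, since gap and displacement share the centre in the library of choice. Error in that centre favours a partner towards the longer gap. The difference between these shares was not tested. Among nucleosomes isolated in both libraries, which the rule treats alike, 661 were nearer the middle of their 2 neighbours in the mutant and 713 in wild type. Their left and right gaps differed by a median of 110.0 bp in the mutant and 107 bp in wild type.

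A nucleosome counted as isolated in both libraries only if it had a partner. These numbered 1389, which is 41.3% of those of the fun30 deletion library (39.7 to 43.0%) and 40.7% of those of wild type (39.1 to 42.4%). The commonest other fate was a partner with a call of the other library inside one of the gaps, at 1070 nucleosomes chosen in the mutant (31.8%) and 1122 chosen in wild type (32.9%). A flank that had moved to below 250 bp accounted for 121 mutant (3.6%) and 144 wild-type nucleosomes (4.22%), and a gap of 800 bp or more for 129 mutant (3.84%) and 106 wild-type ones (3.11%). The remaining 652 mutant (19.4%) and 651 wild-type nucleosomes (19.1%) had no partner. Choosing on 1 library favours loss in the other, and the shares in the 2 directions were alike, so they do not measure loss against gain.

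**Figure D3:**
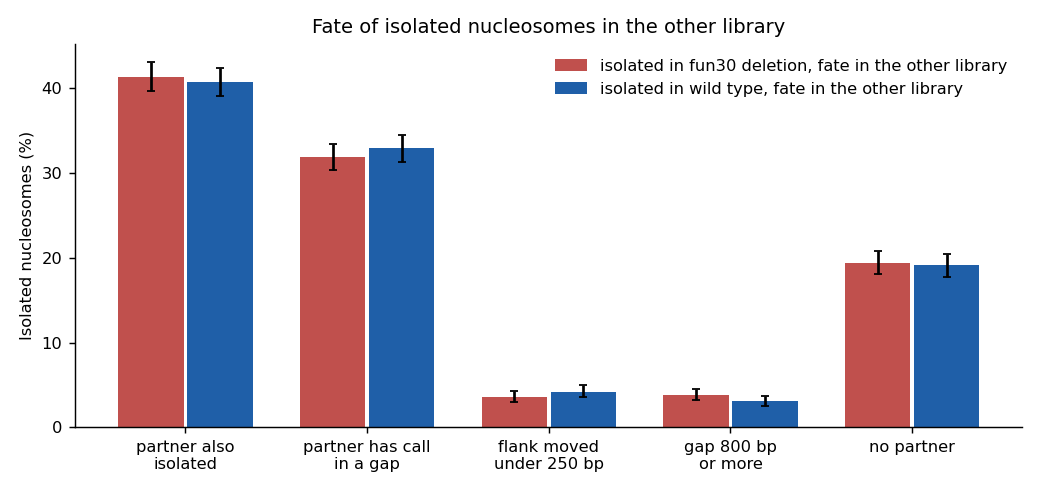
Fate of isolated nucleosomes in the other library, as a share of the 3361 chosen in the fun30 deletion library (red) and the 3412 chosen in wild type (blue); bars are shares and whiskers exact 95% intervals over calls. The 2 directions are alike in each fate, with 41.3% (mutant) and 40.7% (wild type) isolated again.

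The nucleosomes without a partner were weak even among isolated ones. Their median occupancy was 0.107 in each direction, and 18 in the fun30 deletion library and 19 in wild type lay above the median of all calls. Of those isolated in the mutant 515 had no wild-type call within the length of DNA in a nucleosome core (79.0% of the unpaired), and of those isolated in wild type 495 had no mutant call as near (76.0%). The strongest unpaired mutant member lay at 78838 on chromosome 3, with an occupancy of 0.516 and gaps of 580 and 284 bp; the nearest wild-type call was 278 bp away. The strongest unpaired wild-type member lay at 779374 on chromosome 14, with an occupancy of 0.610 and gaps of 276 and 306 bp, and the nearest mutant call was 270 bp away. That position is within 30 kb of the last call of the chromosome.

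Calls of the other library inside the gaps were frequent and weak. At least 1 gap held such a call, more than 73 bp from the member and from the flank, at 1720 of the mutant isolated nucleosomes (51.2%, 49.5 to 52.9%) and at 1758 of the wild-type ones (51.5%, 49.8 to 53.2%). Both gaps held one at 327 mutant (9.73%) and 382 wild-type nucleosomes (11.2%). The strongest such call per nucleosome had a median occupancy of 0.114 for wild-type calls in mutant gaps and 0.115 for mutant calls in wild-type gaps, with quartiles of 0.0976 and 0.140 for wild-type calls in mutant gaps and 0.0985 and 0.145 for mutant calls in wild-type gaps. It lay above the median of its library at 87 mutant (2.59%, 2.08 to 3.18%) and 107 wild-type nucleosomes (3.14%, 2.58 to 3.78%). It was stronger than the isolated nucleosome itself at 448 mutant (13.3%) and 473 wild-type nucleosomes (13.9%).

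The gaps beside isolated nucleosomes were filled about as often as other wide gaps. Of 5774 gaps beside a mutant isolated nucleosome 30.6% held a wild-type call (29.4 to 31.8%), against 29.9% of all mutant wide gaps, and of 5765 gaps beside a wild-type one 31.0% held a mutant call (29.9 to 32.3%), against 30.9% of all wild-type wide gaps. Weighted to the same lengths in classes of 25 bp, gaps without an isolated flank differed by 1.19 points in the mutant (-0.459 to 2.83) and 0.130 points in wild type (-1.52 to 1.78), isolated minus other. The filled share rose with length, which the definition favours. A filling call must lie more than 73 bp from each end of a gap, so longer gaps leave more room for one. From 250 to below 300 bp it was 21.1% in the mutant (18.7 to 23.7%) and 22.7% in wild type (20.3 to 25.2%), and from 500 to below 800 bp it was 41.3% in the mutant (38.7 to 43.9%) and 41.9% in wild type (39.2 to 44.5%).

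The place of the filling calls varied, within the limit of more than 73 bp from each flank that the definition sets. In gaps of 300 to below 350 bp with 1 call inside, the call lay a median of 33.5 bp from the middle in 358 mutant gaps and 36.5 bp in 376 wild-type gaps. It was within 20 bp of the middle in 29.3% of the mutant gaps and 30.1% of the wild-type gaps.

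**Figure D4:**
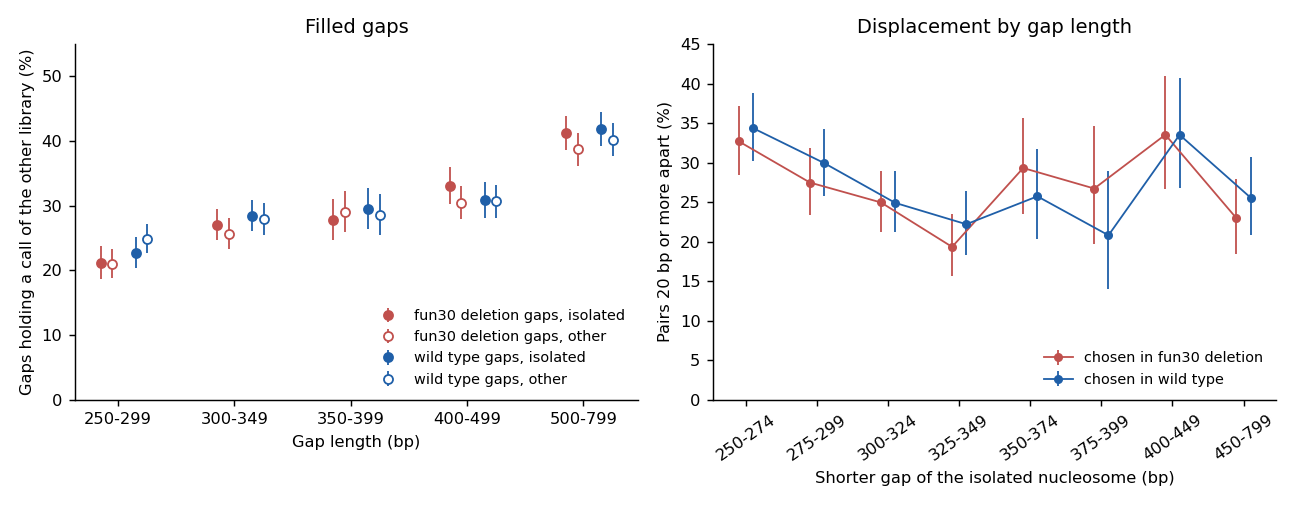
Left: share of wide gaps that held a call of the other library by gap length, for gaps beside isolated nucleosomes (filled points) and other wide gaps (open points) of the fun30 deletion (red) and wild-type (blue) libraries. Right: share of isolated nucleosomes with a partner 20 bp or more away by the length of their shorter gap; bars are exact 95% intervals over gaps or calls, and the share for 250 to below 300 bp exceeds that for 300 to below 350 bp by 7.70 points (mutant) and 8.53 points (wild type).

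The strongest filling calls were few. Those named here lie beside members isolated in 1 library only. Among nucleosomes isolated in wild type only, the strongest mutant call in a gap was at 1060333 on chromosome 12. It had an occupancy of 1.01 and a width of 173 bp, and the wild-type nucleosome at 1060433 had an occupancy of 0.318 and no partner. The second, at 487 on chromosome 3, had an occupancy of 0.753 beside the wild-type nucleosome at 885. Both lie near a chromosome end and are uncertain. The third was at 468442 on chromosome 5, where the mutant call had an occupancy of 0.511 and the wild-type nucleosome at 468225 had a mutant partner 2 bp away. At 715760 on chromosome 12 the mutant call inside the gap had 0.448, at a distance of 144 bp. Among nucleosomes isolated in the mutant only, the strongest wild-type call in a gap was the one at 779374 on chromosome 14 described above. It had an occupancy of 0.610 and lay beside the mutant nucleosome at 779104. Next among these members were calls of 0.374 at 558461 on chromosome 10, 0.372 at 569918 on chromosome 14 and 0.357 at 74639 on chromosome 16. Over all mutant isolated nucleosomes, wild-type calls in gaps of 400 to below 500 bp reached 0.390.

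The 1389 nucleosomes isolated in both libraries were stronger in the median than members isolated in 1 library only, which include those without a partner. Their median occupancy was 0.184 in the fun30 deletion library and 0.187 in wild type, against 0.147 for the mutant-only and 0.147 for the wild-type-only members. Members with a partner and a call inside a gap were no weaker, with medians of 0.196 in the mutant and 0.188 in wild type. The 1389 nucleosomes isolated in both libraries lay on all 16 chromosomes, and their partners were 20 bp or more apart in 328 cases (23.6%, 21.4 to 25.9%). Their gaps had medians of 373 bp in the mutant and 374 bp in wild type, and the median change of a gap was 0 bp. Of their 2778 gaps 761 were longer by 20 bp or more in the mutant and 744 were shorter. In 1006 cases both flanking nucleosomes had partners as well, and the displacement of the central nucleosome was nearly unrelated to that of its left flank (r = 0.04) and of its right flank (r = 5.7e-05). All 3 nucleosomes were displaced by less than 20 bp in 468 of these 1006 cases. That is 33.7% of the 1389, which include cases without partners for both flanks, where this could not be measured. Widths in the libraries were weakly related across these nucleosomes (r = 0.15), as they were over all 40794 pairs (r = 0.12).

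**Figure D5:**
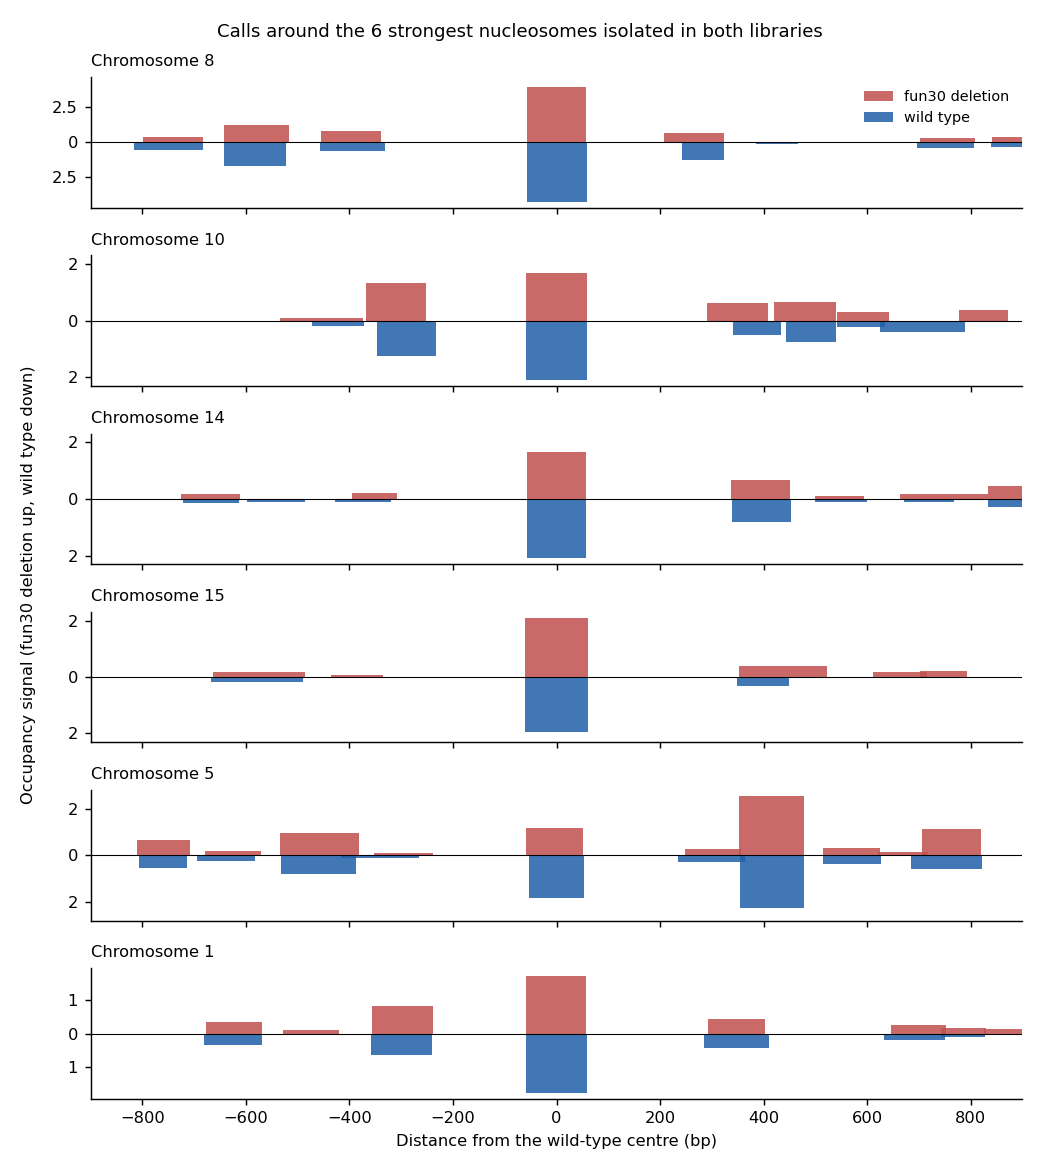
Nucleosome calls within 900 bp of the 6 strongest nucleosomes isolated in both libraries, with distance from the wild-type centre in bp on the horizontal axis, bar width equal to the call width and bar height the occupancy signal, fun30 deletion upwards and wild type downwards. The central call lies within 4 bp of its place in both libraries, while calls around it differ in position and, except on chromosome 10, in number.

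The strongest of these nucleosomes held their place to within a few bp. By rule the named positions have an occupancy over the lower quartile of each library, which 870 of the 1389 had. The highest occupancy was at 98421 on chromosome 8, with 3.93 in the fun30 deletion library and 4.24 in wild type at the same centre, and with gaps of 397 and 266 bp in the mutant and 394 and 283 bp in wild type. At 337945 on chromosome 10 the centre was also identical, with occupancies of 1.70 in the mutant and 2.10 in wild type. The nucleosome at 31696 on chromosome 14 had 1.65 in the mutant and 2.09 in wild type, and the one at 24628 on chromosome 15 had 2.13 in the mutant and 1.97 in wild type, both at unchanged centres and within 30 kb of an outermost call. On chromosome 15 the left gap was 385 bp in the mutant and 579 bp in wild type, and the weak mutant call that bounds the first lay inside the second. The fifth was at 349659 in the mutant and 349663 in wild type on chromosome 5, with occupancies of 1.19 in the mutant and 1.83 in wild type. The sixth was at 87300 in the mutant and 87301 in wild type on chromosome 1, with 1.72 in the mutant and 1.79 in wild type.

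Isolation by the widest gaps was found at positions of various strength. On chromosome 13 the nucleosome at 74548 in the mutant and 74532 in wild type had gaps of 761 and 612 bp in the mutant and 735 and 695 bp in wild type, with occupancies of 0.167 in the mutant and 0.253 in wild type. On chromosome 2 the nucleosome at 494084 in the mutant and 494087 in wild type was stronger, with 0.719 in the mutant and 0.755 in wild type, between gaps of 794 and 710 bp in the mutant and 683 and 709 bp in wild type. The next were on chromosome 4 at 652323 in the mutant and 652310 in wild type, with gaps of 674 and 718 bp in the mutant and 680 and 742 bp in wild type, and on chromosome 10 at 663312 in the mutant and 663311 in wild type, with gaps of 659 and 667 bp in the mutant and 735 and 680 bp in wild type. Their occupancies were 0.231 in the mutant and 0.193 in wild type on chromosome 4, and 0.477 in the mutant and 0.620 in wild type on chromosome 10.

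The largest displacements were close to the pairing limit of 73 bp, so that some pairs may join different nucleosomes. On chromosome 7 the centre was at 129970 in the mutant and 130042 in wild type, a displacement of -72 bp, with gaps of 487 and 561 bp in the mutant and 551 and 279 bp in wild type. On chromosome 2 it was at 390994 in the mutant and 391062 in wild type (-68 bp), on chromosome 12 at 708110 in the mutant and 708045 in wild type (65 bp), and on chromosome 14 at 454437 in the mutant and 454501 in wild type (-64 bp). Mutant occupancies at these 4 positions ran from 0.149 to 0.315 and wild-type occupancies from 0.134 to 0.258.

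Occupancy differences of 2-fold were about as frequent at isolated nucleosomes as over all pairs. Among the 2761 pairs chosen in wild type 74 were 2-fold or more higher in the fun30 deletion library (2.68%, 2.11 to 3.35%), against 2.59% of all pairs, and 72 were lower by as much (2.61%, 2.05 to 3.27%), against 2.29% of all pairs. The median log2 ratio of mutant to wild type was -0.01, with an SD of 0.51 over pairs. Among the 2709 pairs chosen in the mutant 81 were higher and 63 lower. Weighted to the same occupancy classes, the share with a 2-fold difference differed from that of other pairs by -0.259 points when chosen in wild type (-1.13 to 0.614). The matched scale of the deposited signal favours similar counts in both directions.

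The nucleosomes with the 4 largest occupancy increases kept their place. The largest increase was on chromosome 2 at 619798 in the mutant and 619800 in wild type, with occupancies of 0.487 in the mutant and 0.158 in wild type (ratio 3.09). It was followed by 434596 on chromosome 11, with 0.535 in the mutant and 0.217 in wild type, 321662 on chromosome 14, with 0.678 in the mutant and 0.301 in wild type, and 381327 on chromosome 16, with 0.388 in the mutant and 0.176 in wild type. Their centres differed by 1 to 3 bp between the libraries. Among decreases the first was on chromosome 14 at 635634 in the mutant and 635609 in wild type, with 0.156 in the mutant and 0.395 in wild type (ratio 0.396). On chromosome 4 the nucleosome at 501542 in the mutant had 0.165 against 0.409 in wild type, and the one at 913678 had 0.146 against 0.362 in wild type. On chromosome 14 at 325369 the mutant value was 0.136, against 0.324 in wild type. The 4 decreases had centres 4 to 35 bp apart, and 3 of them were 25 bp or more apart. These are the extremes of 870 positions and have no replicate check.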

How the data were processed

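Per the file headers, a deposited file gives for each nucleosome call of a library its chromosome, its centre and width in bp (other units) and its occupancy signal. The submitters' processing notes name Bowtie 0.12.7 for the reads. The nucleosome caller, its settings, the scaling of the signal, the genome build and the depth were not given in the sources used here. Therefore no count model was used. The deposited signal is not a read count. Coordinates are those of the deposited files, and no call was assigned to a gene or a sequence, since the build could not be matched.

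Neighbour distances, isolation, pairs (mutual nearest calls at most 73 bp apart), displacements of 20 bp or more, 2-fold ratios, filled gaps and fates were computed for chromosomes 1 to 16 in Python 3.11.15 with numpy 2.4.6, pandas 2.3.3 and scipy 1.17.1. Shares of other calls were weighted to the members' 10 occupancy classes in the library of choice. Steps were tested on simulated calls with known answers.

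The members and lists were chosen with earlier results of these data known. Named positions were isolated in both libraries, with occupancies over each lower quartile: the 6 strongest, and 4 each for the largest shorter gap, displacement, increase and decrease. For members isolated in 1 library they were the 4 strongest filling calls and the strongest member without a partner, in each direction. The rows of isolated nucleosomes were chosen after their values were seen. Alternatives changed the gap limits, the pairing distance, the displacement threshold, the calls and chromosomes entered, the occupancy classes and the members.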

Additional observations from a re-analysis of the deposited data

Results flagged for a closer look

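A chromosome numbered 17, outside the 16 compared, carried 3 calls in the fun30 deletion library and 0 in wild type. Of these calls 0 were isolated by the rule, and the sources used here do not say what the number stands for.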

How the results depend on the processing

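Of 92 values recomputed for 12 results, 58 stayed within the interval of the reported value (counts within 1.5 times) and 34 moved. None of the differences in points changed direction. Counts and shares are never negative, so a change of direction was not possible for them. The differences in points, the 20 occupancy classes and the limit on call width were added after seeing the data. No paired analysis was possible because each genotype has 1 library. The causes of these moves were not tested.

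With a lower gap limit of 300 bp the rule found 2230 mutant and 2199 wild-type nucleosomes. The share also isolated in the other library was then 37.0% for the mutant and 37.5% for wild type, 54.3% of wild-type members had a filled gap, 25.1% of pairs were displaced, and the difference from other calls was -6.47 points for wild type. With a limit of 220 bp the displaced share was 29.7% and the differences were -3.12 points for the mutant and -1.74 points for wild type. With an upper limit of 600 bp the share isolated again was 37.7% for the mutant and 37.1% for wild type, and 49.1% had a filled gap. Without calls below the lower quartile of occupancy these shares were 47.4% for the mutant, 47.1% for wild type and 44.4%, the displaced share was 21.2%, the share with a 2-fold occupancy difference was 3.06%, and the outward difference was 3.002 points. With calls of middle width that difference was 3.004 points.

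Pairing up to 50 bp gave 77.1% paired and 23.98% displaced, and pairing up to 100 bp gave 83.4% paired and 29.7% displaced. For wild-type members above the median occupancy 98.4% were paired, 14.3% displaced and 49.6% isolated again. For these the difference from other calls was -6.01 points and that between gap classes 2.45 points. At a threshold of 10 bp 50.5% were displaced, and at 40 bp 9.05%. At 40 bp the differences were -1.95 points for the mutant and -1.38 points for wild type, and that between gap classes was 3.73 points.

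The limits are those of call lists. Signal below the lists' minimum was not seen, occupancy totals cannot be compared, depth is unknown, and genotype and library cannot be told apart. Intervals count calls as independent, which neighbours sharing a gap are not.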
